A study of Homo sapiens with 12 samples.

Results

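The highest dose of colforsin daropate in the series, 10 µM for 48 h, was compared with vehicle in HEYA8 cells, a human line long in culture that came from ovarian cancer. The comparison used 6 of the 12 libraries, 3 at 10 µM and 3 with vehicle, paired by a number (6, 8 or 11) that the sample titles carry after the letter p. What it marks is not said in the labels, and it is referred to as the label number; the values of a group are listed in the order 6, 8, 11. All libraries are of HEYA8 cells, and as far as the labels say the groups differed in the dose alone. The other 6 libraries, 3 at 1 µM and 3 at 5 µM for the same time, entered the fit and served for the comparison of doses. A gene entered when its value exceeded the lowest value of the table by more than 1 in at least 3 libraries, which held for 17767 of 21207 genes.

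Forskolin, a plant diterpene, binds adenylyl cyclase and makes the enzyme produce cyclic AMP (cAMP), and colforsin daropate is a form of it made soluble in water. Cyclic AMP releases the catalytic subunits of protein kinase A, which phosphorylate the transcription factor CREB, and CREB bound to cAMP response elements (CREs) activates nearby genes. Phosphodiesterases end the signal by degrading cAMP, and several of them are themselves induced by it. The title of the series names MYC, a transcription factor that drives ribosome production and cell growth, in high-grade serous ovarian carcinoma.

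Levels are the deposited variance-stabilised values, which behave as log2 units for abundant genes and flatten towards a floor of 4.86 for rare ones, so differences of rare genes are understated. The steps between low values gave each library's depth: vehicle library 6 was the shallowest, with 24.06 megareads assigned to genes, and the other 5 libraries compared held 31.28 to 47.25. Normalised read counts recovered in the same way are used for folds, and above a level of 10 they carry the rounding of the deposited value to steps of 0.1. Vehicle library 6 stood apart from the other vehicle libraries in genes of cell division: MKI67, the antigen of the Ki-67 proliferation stain, read 12, 9.63 and 9.26 in vehicle and 9.77, 9.7 and 9.28 at 10 µM. Of the reads, 20.55% to 25.61% were not unique in vehicle and 19.29% to 21.17% at 10 µM. The share of gene reads on the 10 genes with most reads was 6.51% to 8.39% in vehicle and 9.75% to 11.48% at 10 µM. The part of these shares in the results below was not tested. In bulk RNA, fewer cells of a kind and less RNA per cell cannot be told apart. Per the design text each group has 3 biological replicates; which step was repeated is not stated, so the p-values measure the spread between these libraries.

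Markers of the labelled tissue were present in part. PAX8, a transcription factor of the Müllerian epithelium, had 5614 to 11065 recovered reads per library, and the keratins KRT7, KRT8 and KRT18 had 3474 to 19982. The keratin KRT19 had at most 19. WT1 had 55 to 193 and MSLN 107 to 183, while the adhesion molecule EPCAM had at most 10. SOX17, MECOM and LYPD1, other genes of the ovarian list, had 149 to 2111, and ESR1 and CLDN6 at most 8 and 5. MUC16, FOLR1, WFDC2 and CDH1 were not found by symbol among the genes of the deposited values, so they were not analysed here. The leukocyte antigen PTPRC had at most 13 reads, and LAPTM5, another gene of that list, had 3304 to 5302. Of the endothelial genes, CDH5 had 2063 to 4883 and TIE1 5236 to 14108 reads in every group, and PECAM1 had 8 to 73. Summed over the 6 endothelial genes measured, normalised counts ran from 12840 to 16186 in vehicle and from 11323 to 13212 at 10 µM, so the groups overlapped.

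At 10 µM, most tested genes of the antioxidant response and most collagens were higher, and most genes of ribosomal proteins, DNA replication and sterol synthesis were lower. Limma called 3326 genes higher (18.7% of those tested) and 3498 lower (19.7%) at an adjusted p under 0.05, with the label number as a block. Counts for the gene lists below are to be read beside these shares. Most shifts were small: 60.4% of the calls were under 0.5 in size. At least 1 on the stabilised scale was reached by 360 rises (2.03%) and 255 falls (1.44%). The large changes leaned upwards, with 16 rises and 1 fall of 3 or more. The 10 µM and vehicle groups did not overlap for 6011 genes (33.8%), and 3029 of the genes tested (17%) lay wholly above vehicle. Of the called genes, 97.3% moved the same way in all 3 label numbers, a share that the calling favours because it used the same differences. The numbers of calls depended on the block and on numbers 8 and 11: a fit with no block gave 1982 rises and 2033 falls. Leaving out number 8 gave 1832 rises and 1796 falls, and leaving out number 11 gave 1862 and 2045.

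**Figure D1:**
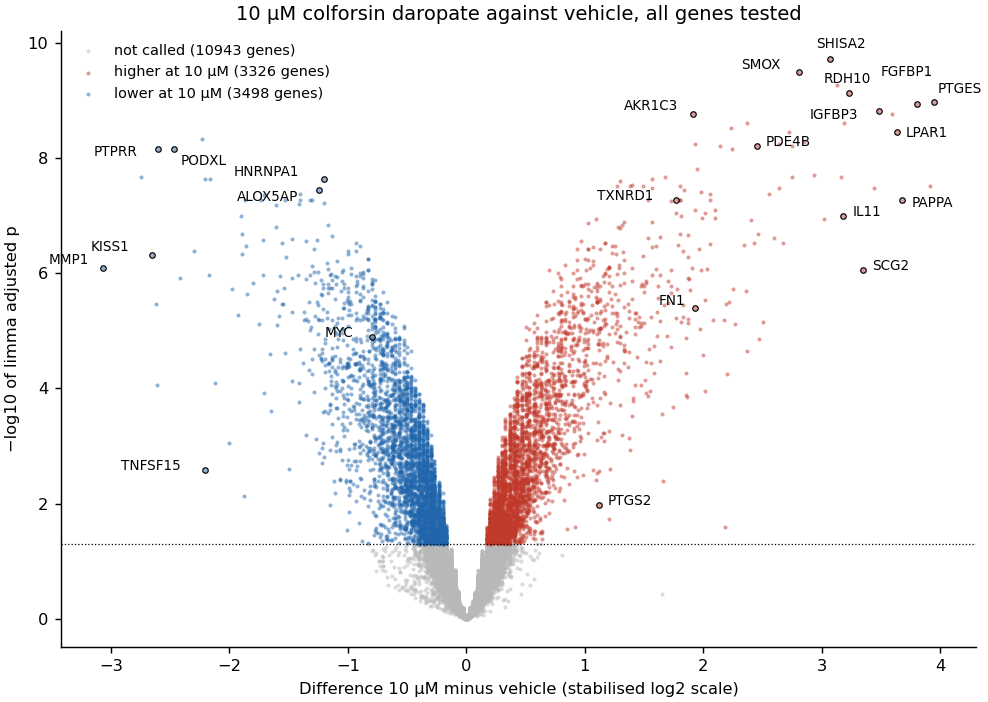
Difference between 10 µM and vehicle (x axis, stabilised log2 scale) against −log10 of the limma adjusted p (y axis) for the 17767 genes tested, 1 point a gene; the dotted line is the threshold of 0.05. The right arm reaches 3.95 (PTGES) and the left arm -3.07 (MMP1).

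The kinds of gene differed in the balance of calls. Among 12889 protein-coding genes, 20% higher and 22.9% lower were called. Long intergenic noncoding RNAs had 19.5% higher and 11% lower among 878, and antisense transcripts 17.1% higher and 11.2% lower among 2098. Processed pseudogenes, which are retrotransposed copies of spliced transcripts, had 7.02% higher and 16.1% lower among 285. Reads of a pseudogene and of its parent, or of a gene and its antisense partner, may be mixed, because the sources used here do not give how reads that fit several places were counted or whether strand was used.

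**Figure D2:**
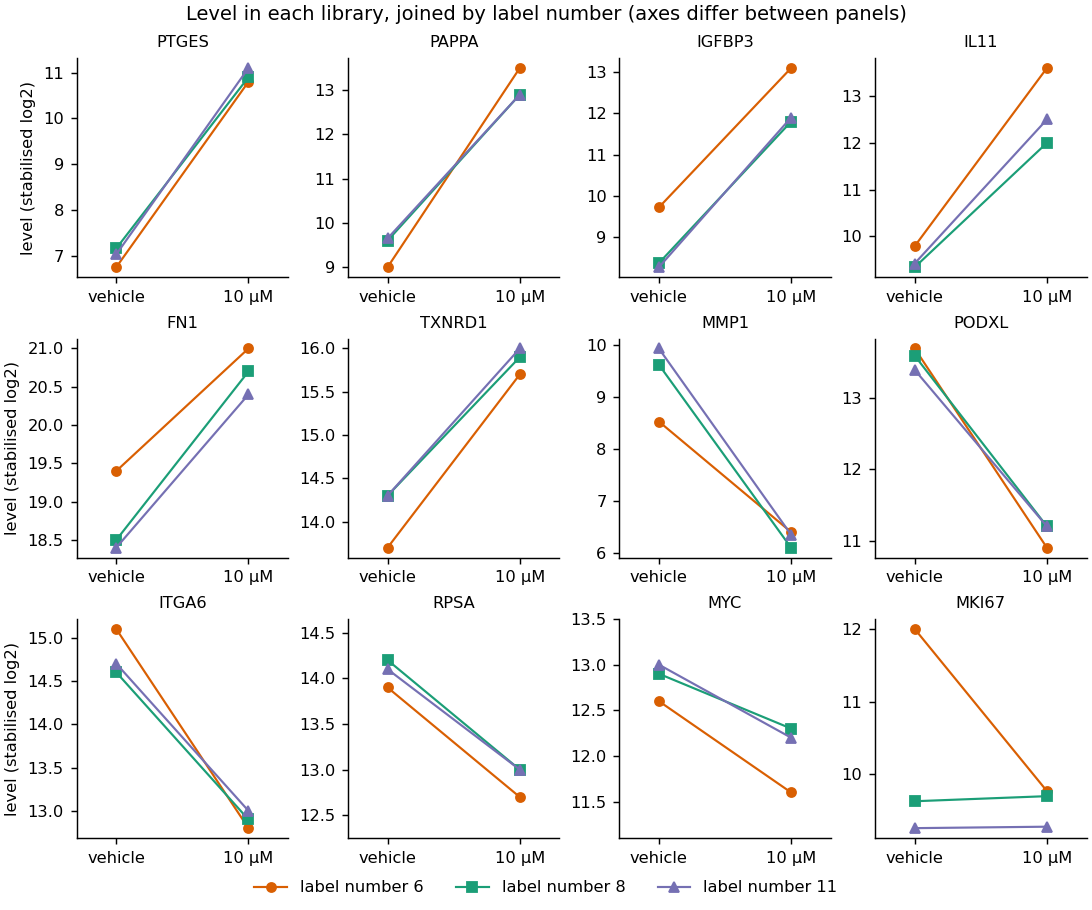
Level of 12 genes (y axis, stabilised log2 scale, with a range of its own in each panel) in the vehicle and 10 µM libraries (x axis), with lines joining libraries of the same label number. For 11 of the genes the 3 lines run the same way; for MKI67 the line of number 6 falls by 2.23 and the other 2 are nearly flat.

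PTGES, which makes prostaglandin E in its last enzymatic step (chromosome 9, 129738331 to 129753047, minus strand, GENCODE 29 on GRCh38), read 6.75, 7.16 and 7.03 in the vehicle libraries and 10.8, 10.9 and 11.1 at 10 µM. Every 10 µM library lay far above every vehicle library, and the difference was 3.95 ± 0.12 (SE, limma adjusted p = 1.06e-09), 25.2-fold in recovered counts. PAPPA, a protease that frees insulin-like growth factors by cleaving their binding proteins (chromosome 9, 116153804 to 116402322, plus strand), read 9, 9.6 and 9.65 against 13.5, 12.9 and 12.9. IGFBP3, the main circulating carrier of those growth factors (chromosome 7, 45912245 to 45921874, minus strand), read 9.72, 8.37 and 8.27 against 13.1, 11.8 and 11.9. Library 6 was the highest for IGFBP3 in both groups, so the 3 differences of 3.38, 3.43 and 3.63 were closer together than the levels. The difference was 3.68 ± 0.19 for PAPPA and 3.48 ± 0.11 for IGFBP3 (adjusted p = 5.3e-08 and 1.54e-09). An antisense gene, PAPPA-AS1, overlaps PAPPA, and without the use of strand their reads cannot be told apart.

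Receptors and growth factor carriers followed. ACKR3, a receptor that scavenges the chemokine CXCL12, had 110, 9.07 and 3.32 normalised counts in vehicle and 2463, 569 and 662 at 10 µM. Library 6 was highest in both groups, and the lowest treated library exceeded the highest vehicle library. The other vehicle libraries lay under the filter on low values, so ACKR3 was tested only because treated libraries were high. That favoured its rise and lack of overlap in advance. FGFBP1, which carries fibroblast growth factors out of the matrix, had 16.9, 85.1 and 89.7 against 609, 1990 and 2295 counts. LPAR1, a receptor for lysophosphatidic acid (chromosome 9, 110873263 to 111038458, minus strand), read 7.3, 6 and 6.26 against 10.7, 9.64 and 10.1 on the stabilised scale. The differences on the stabilised scale were 3.91 ± 0.18, 3.8 ± 0.12 and 3.63 ± 0.13. The receptors LPAR3 and LPAR5 of the same lipid went the other way, by -1.1 ± 0.09 and -1.31 ± 0.13. SHISA2, a membrane protein of the endoplasmic reticulum, had the smallest p of all genes: it read 13.1, 12.4 and 12.7 in vehicle and 16, 15.6 and 15.8 at 10 µM (3.07 ± 0.07, limma adjusted p = 1.92e-10). DNER, a Notch-related surface protein, went from 10.2, 10.4 and 10.5 to 13.6, 13.3 and 13.6, and SMOX, which oxidises the polyamine spermine, from 9.12, 9.19 and 9.17 to 12, 11.9 and 12. In both, the libraries of a group lay within a narrow band and the groups were wide apart.

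RDH10, which makes retinaldehyde from retinol in the first step of retinoic acid synthesis, rose by 3.23 ± 0.09 (adjusted p = 7.53e-10). It led a retinoid list in which 8 of 13 genes rose and 0 fell (median 0.34, against 0 for all genes tested), with 0 lower at an unadjusted p under 0.05 and 0 lower by voom. DHRS3, which returns retinaldehyde to retinol, read 11.9, 12 and 12.1 in vehicle and 13.1, 13 and 13.1 at 10 µM, and CYP26B1, which breaks retinoic acid down, 7.69, 7.69 and 7.59 against 8.72, 8.96 and 8.75. Both rose, by 1.07 ± 0.07 and 1.15 ± 0.09, and the groups did not overlap for either.

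The largest falls included a collagenase and surface proteins. MMP1, interstitial collagenase (chromosome 11, 102789920 to 102798160, minus strand), read 8.53, 9.62 and 9.93 in vehicle and 6.41, 6.11 and 6.36 at 10 µM. Vehicle library 6 was the lowest of its group, which made the fall smaller in number 6 (-2.12, -3.51 and -3.57 in the 3 numbers), and the fitted difference was -3.07 ± 0.22 (limma adjusted p = 7.99e-07). PODXL, a sialomucin of the cell surface (chromosome 7, 131500262 to 131558217, minus strand), read 13.7, 13.6 and 13.4 against 10.9, 11.2 and 11.2. PODXL fell by 2.47 ± 0.1, and its groups were far apart. PTPRR, a phosphatase of MAP kinases, had 247, 428 and 365 counts in vehicle and 12.1, 22.3 and 27.2 at 10 µM, a 16.9-fold fall. KISS1, the precursor of kisspeptin, had 1203, 515 and 535 against 179, 33.7 and 41 counts, and library 6 was the highest of each group. ESM1, a proteoglycan secreted in response to angiogenic factors, read 15.1, 14.4 and 14.6 against 13.2, 11.9 and 12.1 and fell by 2.3 ± 0.15. NAV2, a microtubule-associated protein of neurite outgrowth, and PLXNA2, a semaphorin receptor, fell (differences of -2.21 ± 0.1 and -2.16 ± 0.1). TRIM55, a ubiquitin ligase of muscle, fell by 2.75 ± 0.12, SUN3, a protein of the nuclear envelope, by 2.62 ± 0.22, and the difference of DEPP1 was -2.61 ± 0.34.

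**Figure D3:**
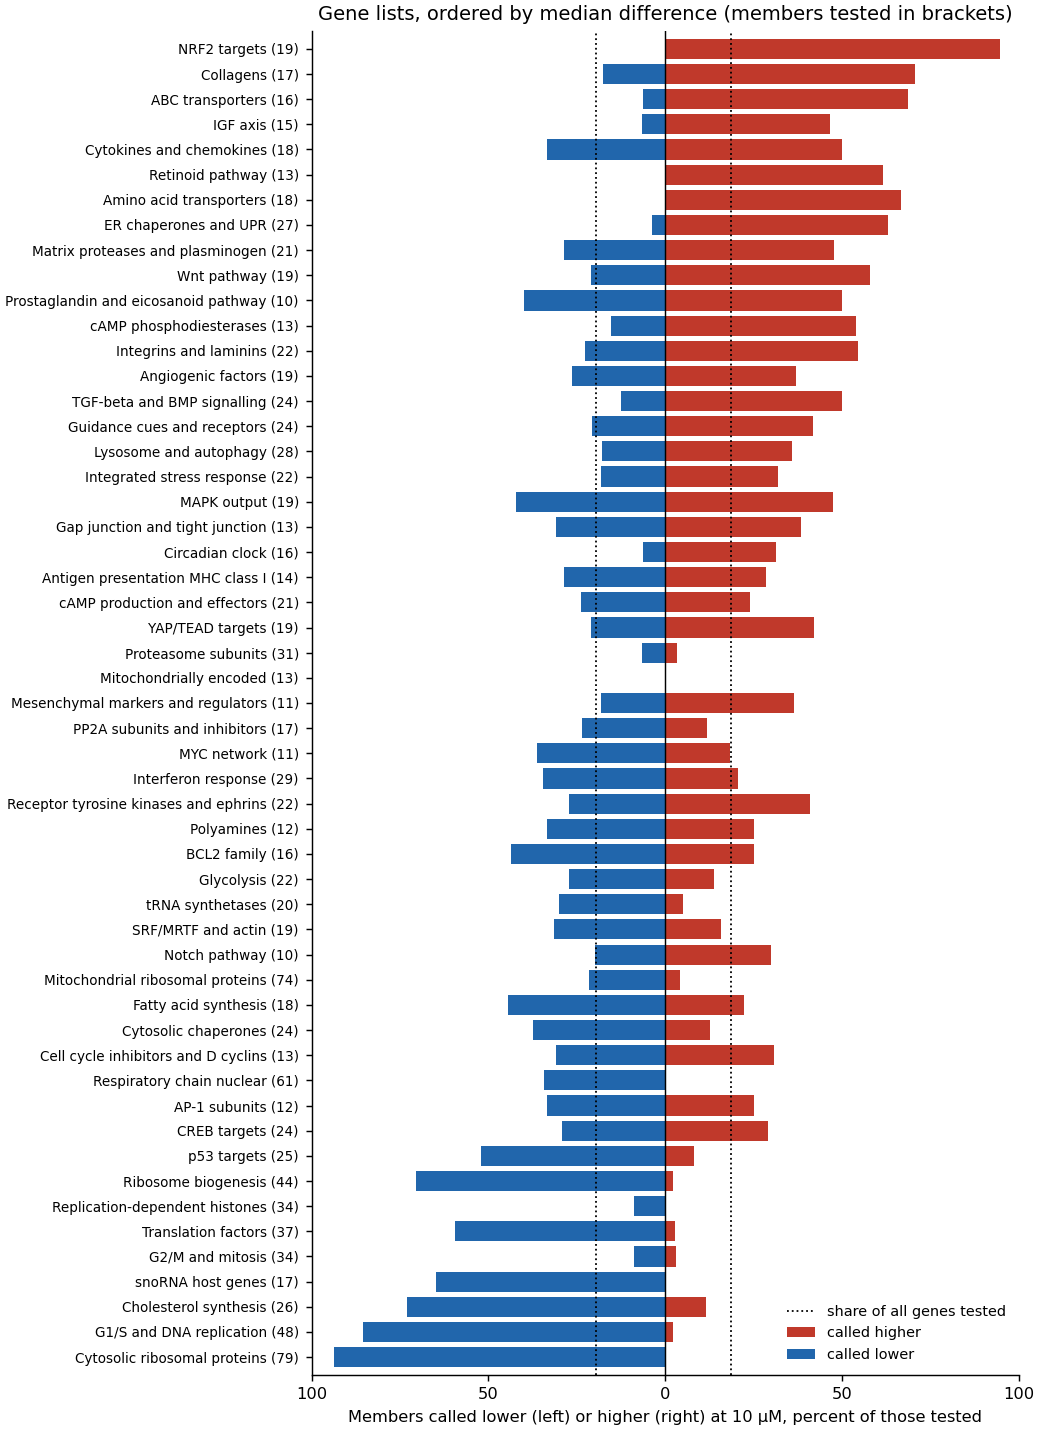
Share of the tested members of each gene list with 10 or more of them that was called lower (bars to the left) or higher (bars to the right) at 10 µM, in percent, ordered by the list's median difference. The dotted lines are the shares over all genes tested, 19.7% lower and 18.7% higher; NRF2 targets are at one end and cytosolic ribosomal proteins at the other.

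Genes of the antioxidant response rose with 1 exception among those tested. They answer to NRF2, a transcription factor that is freed by oxidants and electrophiles and binds antioxidant response elements (AREs). Of the 19 NRF2 targets that could be tested, 18 rose and 0 fell, with a median difference of 1.1, against 18.7% higher and a median of 0 over all genes. At an unadjusted p under 0.05, 0 were lower, and voom called 0 lower. The other 3 genes of the list were under the filter on low values. The median was 1.0, 0.99 and 1.15 in the 3 label numbers.

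Among the antioxidant enzymes, TXNRD1, which reduces thioredoxin (chromosome 12, 104215779 to 104350305, plus strand), read 13.7, 14.3 and 14.3 in vehicle and 15.7, 15.9 and 16 at 10 µM. NQO1, a quinone reductase (chromosome 16, 69706996 to 69726951, minus strand), read 13, 13.8 and 13.7 against 15.3, 15.2 and 15.3, and GCLM, the modifier subunit of the enzyme that starts glutathione synthesis, 10.1, 9.98 and 9.96 against 11.6, 11.4 and 11.5. Vehicle library 6 was the lowest vehicle library for TXNRD1 and NQO1 and the highest for GCLM, while the 10 µM libraries were close together. The differences were 1.77 ± 0.09, 1.77 ± 0.16 and 1.49 ± 0.07 (limma adjusted p = 5.3e-08, 5.9e-06 and 3.11e-08). SLC7A11, the cystine importer that feeds glutathione synthesis (chromosome 4, 138164097 to 138242349, minus strand), read 11.9, 13 and 13.2 against 14.8, 15.1 and 15, a difference of 2.27 ± 0.22. AKR1C3, an aldo-keto reductase of prostaglandins and steroids, had 459, 351 and 383 counts in vehicle and 1853, 1494 and 1606 at 10 µM and differed by 1.89, 1.93 and 1.92 in the 3 numbers. Enzymes of the pentose phosphate pathway, which supply NADPH, also rose: TALDO1 rose by 1.3 ± 0.08 and PGD by 0.9 ± 0.07. The iron store FTH1 rose by 1.1 ± 0.09, and its partner chain FTL had a difference of 0.2 ± 0.19 that did not pass (adjusted p = 0.432); FTL read 16.4, 17.7 and 17.7 in vehicle and 17.3, 17.5 and 17.6 at 10 µM, with vehicle library 6 the lowest of the 6 libraries. NMRAL2P, a transcribed pseudogene that was among the 6 largest rises from 1 to 10 µM, rose by 2.93 ± 0.13 over vehicle.

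The rise of this list lay mainly above the lowest dose. Over vehicle, the median of the list stood at 0.26, 0.72 and 1.1 in order of dose, with the same vehicle libraries in all 3 differences. Tested directly against 1 µM, 18 of the 19 genes were higher at 10 µM and 0 lower, where 9.46% of all genes were called higher and 11.4% lower. The median of their differences between 10 and 5 µM was 0.2.

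**Figure D4:**
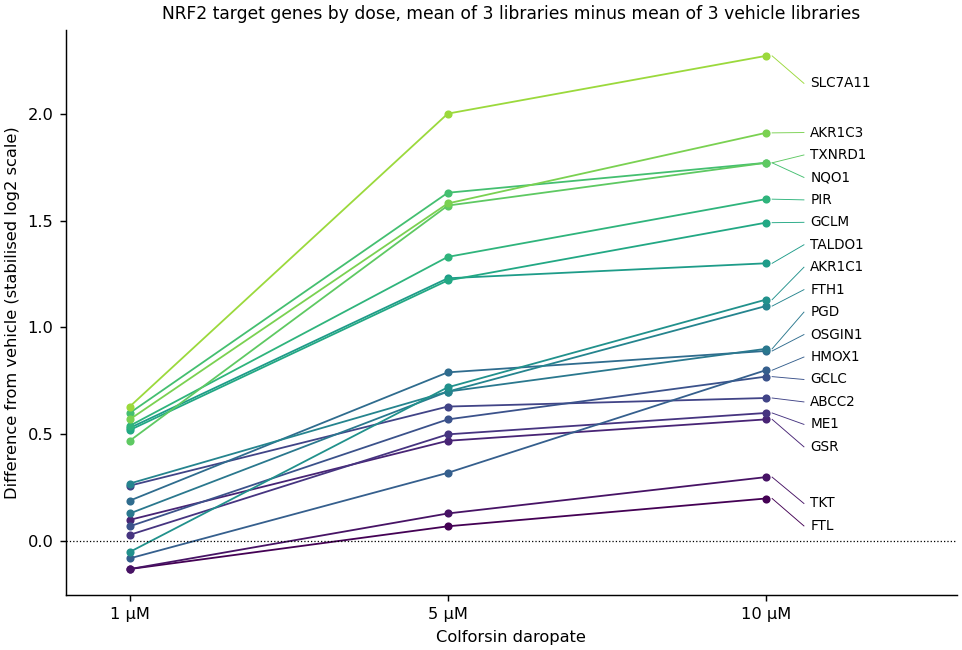
Difference from vehicle (y axis, stabilised log2 scale, mean of 3 libraries minus mean of the 3 vehicle libraries) of 18 of the 19 NRF2 targets at 1, 5 and 10 µM (x axis, doses evenly spaced). SLC7A11 is the highest line at each dose; FTL and TKT are the lowest lines.

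Promoters of the list were read for the ARE core, TGACNNNGC, on both strands. RefSeq windows on GRCh38.p14, from 250 bases before to 50 after a gene's start, were found by symbol for 11639 of the 17767 genes tested (16761 windows, as some genes have several starts). The core was in 6 of 16 windows of 14 NRF2 targets (37.5%), in 14.5% of the windows of all genes matched and in 13.3% of all 35116 windows in the table. Genes called higher had it in 15.2% of windows and genes called lower in 14.2%. The list was drawn up from genes known as NRF2 targets, so its higher share reflects that choice and is no result of the treatment. A match is a description of the letters and not a binding site. To show the motif in members that rose, the following lines hold, with the core in capitals, stretches of 30 bases on either side of it for the 3 members with the largest rise whose match lies before the start and outside annotated exons: TXNRD1 (chr12:104215650-104215718, plus strand), PGD (chr1:10398833-10398901, plus strand) and ME1 (chr6:83431150-83431218, minus strand). The core starts 99, 201 and 137 bases before the respective start; in PGD it is on the other strand.
TXNRD1: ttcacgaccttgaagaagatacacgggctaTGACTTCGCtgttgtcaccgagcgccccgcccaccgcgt
PGD: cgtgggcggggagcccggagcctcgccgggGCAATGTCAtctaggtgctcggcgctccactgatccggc
ME1: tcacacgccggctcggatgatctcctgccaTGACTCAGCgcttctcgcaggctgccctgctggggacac

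Phosphodiesterases, the first feedback on cAMP, rose in part. Of 13 measured, 7 rose and 2 fell (median 0.25). PDE4B, which degrades cAMP, had 116, 141 and 115 counts in vehicle and 1040, 804 and 898 at 10 µM, and PDE4D read 11.7, 12.1 and 12.2 against 13.2, 13.2 and 13.3. PDE3A had 6.3, 6.3 and 4.05 counts in vehicle and 408, 113 and 158 at 10 µM. Its vehicle mean of 5.49 lay under the filter, so it was tested only because treated libraries were high. That makes its rise and lack of overlap close to given in advance. PDE4B, PDE4D and PDE3A were higher in every treated library than in any vehicle library (2.45 ± 0.1, 1.23 ± 0.1 and 2.5 ± 0.24). PDE2A, which is stimulated by cyclic GMP, read 11.4, 12.4 and 12.5 against 10.3, 11 and 10.9 and fell by 1.37 ± 0.13. 

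Known CREB targets went both ways, with 7 higher and 7 lower of 24 tested (median -0.2). Over all genes the shares were 18.7% higher and 19.7% lower. BDNF, a neurotrophin, read 9.75, 10 and 10.2 in vehicle and 11.3, 11.8 and 11.9 at 10 µM, and DUSP1, a phosphatase of MAP kinases (chromosome 5, 172768090 to 172771195, minus strand), 12.3, 12.6 and 12.6 and 14.4, 14.2 and 14.3. VGF, a neuroendocrine secretory protein, had 16.9, 74.7 and 91.6 against 173, 642 and 418 counts. The 3 genes rose by 1.68 ± 0.08, 1.8 ± 0.09 and 2.03 ± 0.14, and their groups did not overlap. NR4A1, an orphan nuclear receptor induced early after cAMP, read 8.04, 8.45 and 8.57 against 7.28, 7.66 and 7.67 and fell by 0.82 ± 0.09 at this time of 48 h. Its relatives NR4A2 and NR4A3 had differences of 0.78 ± 0.19 and -0.56 ± 0.18 (limma adjusted p = 0.00598 and 0.0275). The call for NR4A2 did not pass without number 6 (0.0545) or 11 (0.0743), and that for NR4A3 without number 8 (0.208) or 11 (0.192); without the block the adjusted p was 0.192 and 0.0795. SGK1, a kinase, and IRS2, an adaptor of the insulin receptor, fell (differences of -1.03 ± 0.1 and -1.06 ± 0.09). CREM, which encodes activators and repressors of cAMP response, rose by 0.53 ± 0.06. FOS had a difference of 0.23 ± 0.12 (limma adjusted p = 0.16) and PER1 of -0.1 ± 0.11 (0.504), and neither passed. Without the block 4 CREB targets fell.

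The letters of a full CRE, TGACGTCA (a palindrome, so both strands are covered), were in a few percent of windows of called and uncalled genes. The share was 2.37% of 3504 windows of genes called higher, 3.06% of 3663 windows of genes called lower and 2.8% of 9594 windows of genes not called. Among rises of at least 1 the share was 2.76% and among falls of that size 1.6%. In all 35116 windows of the table it was 1.85%, and in the list of CREB targets, which was drawn up from genes known to hold such sites, 5 of 39 windows. To show where the motif sits in genes that changed, the following stretches, with the CRE in capitals and 30 bases on either side, belong to 4 genes with large called rises and 2 with large called falls whose CRE lies before a RefSeq start and outside annotated exons.
NRCAM: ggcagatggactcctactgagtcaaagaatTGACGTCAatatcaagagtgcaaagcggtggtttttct
LTBP1: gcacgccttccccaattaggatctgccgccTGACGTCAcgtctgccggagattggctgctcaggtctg
CLSTN2: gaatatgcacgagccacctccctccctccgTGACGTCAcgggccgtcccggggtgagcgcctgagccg
VGF: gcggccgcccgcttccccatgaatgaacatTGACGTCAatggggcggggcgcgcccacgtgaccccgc
CENPW: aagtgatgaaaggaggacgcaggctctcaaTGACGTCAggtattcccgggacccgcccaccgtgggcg
KIF5C: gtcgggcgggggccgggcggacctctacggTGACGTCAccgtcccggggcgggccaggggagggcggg

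The first 4 of these sequences are from NRCAM, a neuronal adhesion molecule (chr7:108243395-108243462, minus strand), LTBP1, which anchors latent TGF-beta in the matrix (chr2:32946829-32946896, plus), CLSTN2, a postsynaptic membrane protein (chr3:139935102-139935169, plus), and VGF (chr7:101165611-101165678, minus). NRCAM read 7.67, 6.99 and 7.25 in vehicle and 10.7, 9.21 and 9.37 at 10 µM, LTBP1 8.53, 9.84 and 9.81 and 12, 11.6 and 11.7, and CLSTN2 8.5, 7.37 and 7.07 and 10.3, 9.66 and 9.72. All 3 were higher in each treated library than in any vehicle library, with differences of 2.46 ± 0.15, 2.37 ± 0.26 and 2.25 ± 0.18. The last 2 are from CENPW, a kinetochore protein (chr6:126339973-126340040, plus), and KIF5C, a kinesin motor (chr2:148875134-148875201, plus). CENPW differed by -2.03, -0.6 and -0.43 in the 3 label numbers (fitted difference -1.02 ± 0.23, adjusted p = 0.00428, and 0.0605 without number 8), so most of its fall was in number 6, and KIF5C fell by 0.99 ± 0.09. NRCAM is read from an internal start, and a gene's level in these data sums all its transcripts.

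Several cytokines were among the larger rises. IL11, a cytokine of the IL-6 family (chromosome 19, 55364389 to 55370463, minus strand), read 9.79, 9.34 and 9.42 in vehicle and 13.6, 12 and 12.5 at 10 µM, and IL6 itself (chromosome 7, 22725884 to 22732002, plus strand) 8.9, 9.14 and 9.56 and 12, 11.3 and 11.6. IL1B, the precursor of interleukin-1 beta, read 14.4, 14.9 and 15.1 against 16.5, 16.2 and 16.6. The vehicle and 10 µM libraries did not overlap for any of the 3, and they rose by 3.18 ± 0.18, 2.43 ± 0.15 and 1.63 ± 0.12. Others fell: TNFSF15, a TNF family ligand, read 6.82, 9.8 and 9.92 against 6.62, 6.62 and 6.66, so nearly all of its fall was in numbers 8 and 11. CCL20, a chemokine for CCR6, differed by -0.28, -1.58 and -1.81 in the 3 numbers. Neither fall passed without number 8 (limma adjusted p = 0.14 and 0.0875) or without number 11 (0.116 and 0.0743). The list of 18 cytokines and chemokines had 9 rises and 6 falls (median 0.42). The count of falls was 2 without the block, 1 if number 8 was left out, 1 if number 11 was left out and 8 if number 6 was left out.

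In the prostaglandin pathway 5 of 10 genes rose and 4 fell, with 2 rises without the block and 3 without number 11. PLA2G4A, the phospholipase that releases arachidonic acid, had a difference of 0.91 ± 0.15 with overlapping groups, and did not pass without the block (adjusted p = 0.184). PTGS2, cyclooxygenase 2, had 57.2, 50 and 50 counts in vehicle and 535, 87.8 and 79.8 at 10 µM. It differed by 2.46, 0.49 and 0.4 in the 3 numbers, and the call (adjusted p = 0.0107) did not pass without the block (0.149), without number 8 (0.0729) or without number 11 (0.0523). PTGER4, a receptor for prostaglandin E that raises cAMP, rose by 1.13 ± 0.09, and PTGIR, the prostacyclin receptor, fell by 0.91 ± 0.15. ALOX5AP, which presents arachidonic acid to 5-lipoxygenase, read 10.4, 11.7 and 11.7 against 9.18, 10.4 and 10.5. Library 6 was the lowest of each group, so the groups overlapped, while the differences within the numbers were -1.22, -1.3 and -1.2 (adjusted p = 3.65e-08, and 0.108 without the block).

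Of 29 interferon response genes 6 rose and 10 fell (median -0.04), against 18.7% higher and 19.7% lower over all genes. IRF1, a transcription factor of the response, rose by 0.83 ± 0.08, and IFI44L and the RNA sensor OAS3 fell (differences of -1.38 ± 0.16 and -0.95 ± 0.14). With no block 3 rose and 5 fell. Leaving out number 8 gave 2 rises and 5 falls, and leaving out number 11 gave 3 and 6.

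Of 15 genes of the IGF axis 7 rose and 1 fell (median 0.47): beside PAPPA and IGFBP3, the binding protein IGFBP4, a substrate of PAPPA, read 12.6, 12.6 and 12.7 in vehicle and 14.1, 13.6 and 13.7 at 10 µM. In TGF-beta and BMP signalling 12 of 24 rose and 3 fell (median 0.23). INHBA, the subunit of activin A, read 14.3, 13.5 and 13.6 against 15.7, 15 and 15.2, and the BMP targets ID1 and ID3 read 9.94, 8.47 and 8.64 against 11, 10.3 and 10.3 and 8.39, 7.29 and 7.43 against 9.91, 8.83 and 8.85. The groups did not overlap for INHBA, ID1 or ID3, and GREM1, a BMP antagonist, fell by 1.24 ± 0.24. Without the block 7 of this list rose and 1 fell, and 1 fell without number 8.

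In the Wnt list 11 of 19 rose and 4 fell (median 0.28). WNT5A, a ligand of the noncanonical pathway, read 12.1, 12.1 and 12.3 against 13.9, 13.5 and 13.8, and SFRP1, a secreted Wnt inhibitor, 11.8, 11.9 and 12 against 10.5, 10.8 and 11. WNT5A rose by 1.57 ± 0.1 and SFRP1 fell by 1.13 ± 0.07, with no overlap. Without the block the Wnt list had 5 rises and 2 falls, and without number 8 7 and 2; without number 11 it had 6 rises. Of 10 Notch pathway genes 3 rose and 2 fell (median -0.1), against 18.7% higher and 19.7% lower over all genes. Without the block 1 rose and 1 fell, and the same counts held with number 8 left out. HES1, a Notch target, rose by 1.45 ± 0.14 and NOTCH1 fell by 0.79 ± 0.1. VEGFA, the main angiogenic factor, read 13.2, 12.6 and 12.6 in vehicle and 14.8, 14.6 and 14.7 at 10 µM and rose by 1.9 ± 0.13.

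Genes induced by MAP kinase signalling split, with 9 higher and 8 lower of 19 (median 0.07). DUSP4, a nuclear MAP kinase phosphatase, read 9.75, 9.28 and 9.23 against 11.2, 10.5 and 10.4, and SPRY4, an inhibitor of receptor signalling, 12.4, 12.4 and 12.4 against 11.2, 11.5 and 11.5. EGR1, an immediate early transcription factor, read 9.5, 9.93 and 10.1 against 8.43, 8.8 and 8.62. The groups of these 3 did not overlap, and the differences were 1.28 ± 0.07, -1.0 ± 0.08 and -1.23 ± 0.14. In the AP-1 family FOSL1 fell by 0.8 ± 0.08 and FOSL2 rose by 0.83 ± 0.1. Without the block 5 MAP kinase genes rose and 3 fell; without number 8 the counts were 5 and 5, and without number 11 4 fell.

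In the extracellular matrix fibronectin and most collagens rose. FN1, fibronectin, had 412645 to 445270 recovered reads in vehicle and 1423933 to 1764201 at 10 µM. Its level was 19.4, 18.5 and 18.4 in vehicle and 21, 20.7 and 20.4 at 10 µM (difference 1.93 ± 0.17), with no overlap. Of 17 collagen genes 12 rose and 3 fell (median 0.67). COL1A1, the main chain of collagen I, had 106, 13.5 and 28.5 counts in vehicle and 1294, 275 and 282 at 10 µM, and COL6A1 read 12.7, 11.3 and 11.5 against 14.2, 13.5 and 13.4. COL18A1, a basement membrane collagen, rose by 1.2 ± 0.09, and COL27A1 fell by 0.91 ± 0.11.

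Of 22 integrin and laminin genes 12 rose and 5 fell. ITGA11, a collagen receptor, read 7.96, 6.69 and 6.55 against 10.3, 8.51 and 8.57 (adjusted p = 3.1e-07, and 0.0515 without the block). ITGB8, which binds latent TGF-beta, read 10.3, 6.26 and 6.6 against 11.9, 9.32 and 9.35, with vehicle library 6 well above the other 2 and the groups overlapping (adjusted p = 1.36e-05, and 0.18 without the block). ITGA6, a laminin receptor, read 15.1, 14.6 and 14.7 against 12.8, 12.9 and 13, and ITGB3, a vitronectin receptor subunit, 13.2, 13.4 and 13.5 against 10.7, 11.3 and 11.6. ITGA6 and ITGB3 fell (differences of -1.9 ± 0.11 and -2.17 ± 0.16) with no overlap. Without the block 5 genes of this list rose, and 7 without number 8.

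Among 21 matrix proteases and plasminogen genes 10 rose and 6 fell. ADAMTS5, an aggrecanase, had 365, 35.7 and 36.2 counts in vehicle and 3508, 752 and 730 at 10 µM, and PLAT, tissue plasminogen activator, 1725, 822 and 798 and 4985, 4647 and 5347. ADAMTS5 rose by 3.19 ± 0.11 and PLAT by 2.19 ± 0.19. Beside MMP1, the gelatinase MMP9 fell by 1.4 ± 0.15 and the inhibitor TIMP3 by 1.13 ± 0.13. The other gelatinase, MMP2, rose by 0.73 ± 0.16 from a vehicle mean of 5.31, near the floor. This mean lay under the filter, so MMP2 was tested only because treated libraries were high. Its rise was thereby close to given in advance. The inhibitors TIMP1 and TIMP2 rose by 0.6 ± 0.12 and 0.43 ± 0.05, and TIMP4 was not called. Of 11 mesenchymal markers and regulators 4 rose and 2 fell (median 0). CDH2 (N-cadherin), TGFBI and SPARC rose by 1.3 ± 0.06, 1.57 ± 0.08 and 1.23 ± 0.08, while the intermediate filament VIM read 18.7, 17.8 and 17.9 against 17.5, 17 and 17.1 and fell by 0.93 ± 0.11. Among the transcription factors of this list TWIST2 had a difference of -0.81 ± 0.11 (limma adjusted p = 8.61e-05), and ZEB1, ZEB2, SNAI1, SNAI2 and TWIST1 were not called. Of the keratins, KRT7 rose by 1.13 ± 0.11, and KRT8 and KRT18 fell (differences of -0.83 ± 0.14 and -0.73 ± 0.13), with number 6 moving more (-1.4, -0.5 and -0.6 for KRT8). PAX8 rose by 0.7 ± 0.1.

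Membrane transporters of both families examined had more rises than falls. Of 16 ABC transporters 11 rose and 1 fell (median 0.49). ABCC3, an export pump for organic anions (chromosome 17, 50634777 to 50692252, plus strand), had 253, 170 and 175 counts in vehicle and 4985, 2463 and 2137 at 10 µM and rose by 3.59 ± 0.12. ABCG1, a cholesterol exporter, rose by 1.27 ± 0.12, and ABCG2, a pump of many drugs, by 0.91 ± 0.13 with overlapping groups (adjusted p = 0.165 without the block). ABCC4, which exports cAMP and prostaglandins, was the gene that fell, by 0.37 ± 0.06. Of 18 amino acid transporters 12 rose and 0 fell (median 0.34), with 0 lower at an unadjusted p under 0.05 and 0 by voom. SLC7A2, an arginine transporter, read 12.4, 12 and 12.1 against 14.1, 13 and 13.3, and SLC6A6, the taurine transporter, 11.5, 10.9 and 10.8 against 12.3, 11.8 and 11.8. Neither overlapped. With no block 7 ABC and 5 amino acid transporters rose, and 5 and 6 when number 8 was left out. Leaving out number 11 gave 6 rises of amino acid transporters.

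In a list of chaperones, folding enzymes and related genes of the endoplasmic reticulum, 17 of 27 rose by small amounts and 1 fell (median 0.33). The chaperone HSPA5 was among the 9 not called (-0.1 ± 0.07, limma adjusted p = 0.318). SEC24D, a coat protein of the vesicles that leave this organelle, read 11.2, 10.9 and 10.9 against 11.9, 11.6 and 11.6 and differed by 0.7, 0.7 and 0.7 in the 3 numbers. P4HB, protein disulfide isomerase, rose by 0.47 ± 0.06. Cytosolic chaperones had 3 rises and 9 falls among 24, against 18.7% higher and 19.7% lower over all genes. The rises numbered 1 with no block and 0, 0 and 0 with label number 6, 8 or 11 left out. The falls numbered 3 with no block, and 5, 3 and 4 with label number 6, 8 or 11 left out. Proteasome subunits had 1 rise and 2 falls among 31 (median 0), below the shares of all genes.

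Genes of the translation machinery fell. Of 79 cytosolic ribosomal protein genes 74 fell and 0 rose (median -0.7, and -0.6, -0.8 and -0.7 in the 3 numbers). At an unadjusted p under 0.05, 0 rose, and voom called 0 higher. RPSA, a protein of the small subunit, read 13.9, 14.2 and 14.1 in vehicle and 12.7, 13 and 13 at 10 µM, and RPS25 14.7, 14.8 and 14.9 and 13.8, 13.8 and 14. Each treated library was lower than every vehicle library (differences -1.17 ± 0.07 and -0.93 ± 0.06). Ribosomal protein genes have many processed copies in the genome, so reads that fit several places bear on their counts, and the share of such reads differed between the groups as given above; its part in these falls was not tested. With the libraries rescaled, the list median was -0.63 after quantile normalisation and -0.69 after a shift to a common median.

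Of 37 translation factors 22 fell and 1 rose (median -0.35). PABPC1, which binds poly(A) tails, read 16.1, 16.2 and 16.3 against 15.5, 15.3 and 15.5, and EIF2S3, a subunit of the initiator tRNA carrier, 13.5, 13.8 and 13.8 against 13, 12.9 and 13.1. EIF5 was the factor that rose (0.47 ± 0.12, adjusted p = 0.00947, and 0.142 without number 8 and 0.206 without number 11). Of 44 ribosome biogenesis genes 31 fell and 1 rose (median -0.3). FBL, the methyltransferase of ribosomal RNA, read 11.5, 11.3 and 11.3 against 9.86, 10.2 and 10.2, and NPM1, a nucleolar chaperone, fell by 0.77 ± 0.06. Host genes of small nucleolar RNAs, which carry those guide RNAs in their introns, had 11 falls and 0 rises among 17 (median -0.48), with 0 higher at an unadjusted p under 0.05 and 0 by voom. SNHG6 read 12.3, 12.3 and 12.4 against 11.2, 11.2 and 11.5. HNRNPA1, a splicing factor, read 13.5, 13.5 and 13.5 against 12.2, 12.4 and 12.3 and fell by 1.2 ± 0.05. Ribosomal proteins of mitochondria had 16 falls and 3 rises among 74 (median -0.1), a share of falls near that of all genes (18.7% higher and 19.7% lower). With no block 10 biogenesis genes, 4 host genes and 9 mitochondrial ribosomal proteins fell, and 0 of the last rose, as with number 8 or 11 left out. Without number 8 the biogenesis and mitochondrial lists had 20 and 6 falls, and without number 11 20 and 9.

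MYC itself read 12.6, 12.9 and 13 in vehicle and 11.6, 12.3 and 12.2 at 10 µM, without overlap, and differed by -1.0, -0.6 and -0.8 in the 3 label numbers (SE of the fitted difference 0.08, limma adjusted p = 1.29e-05). In the network of MYC, MAX and their partners 2 of 11 rose and 4 fell (median -0.03), against 18.7% higher and 19.7% lower over all genes. The rises numbered 0 with no block and 1 and 1 with number 8 or 11 left out. The falls numbered 2 with no block, 1 with number 8 left out and 2 with number 11 left out. PP2A, a phosphatase that acts on MYC protein, had 2 rises and 4 falls among 17 subunits and inhibitors, near the shares over all genes. Of these, the inhibitor SET had a difference of -0.33 ± 0.07 (adjusted p = 0.00267, and 0.0527 without number 8). With number 6, 8 or 11 left out, 2, 2 and 2 of the list fell, and 1 rose without number 11 or without the block.

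Lipid synthesis fell in most of its sterol branch. Of 26 cholesterol synthesis genes 19 fell and 3 rose (median -0.53). HMGCS1, which makes HMG-CoA, read 11.5, 11.5 and 11.5 against 10.2, 10.3 and 10.4, and SQLE, squalene epoxidase, 12.6, 12.7 and 12.6 against 11.6, 11.8 and 11.9. Both were lower in each treated library than in any vehicle library, with differences of -1.2 ± 0.06 and -0.87 ± 0.07. LBR, a sterol reductase of the nuclear envelope, rose by 0.57 ± 0.08. Of 18 fatty acid synthesis genes 8 fell and 4 rose. SCD, a desaturase, read 12.6, 12.7 and 12.5 against 10.4, 11.3 and 11.5, and FASN, fatty acid synthase, fell by 1.05 ± 0.1. With number 8 left out, 5 of these fell.

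In energy metabolism the medians were near 0. In glycolysis 3 of 22 rose and 6 fell (median -0.07), against 18.7% higher and 19.7% lower over all genes. Hexokinases HK1 and HK2 fell (differences of -0.83 ± 0.06 and -1.07 ± 0.12), and the lactate exporter SLC16A3 rose by 1.17 ± 0.09. Leaving out number 6 gave 7 rises, and the fit with no block 1. Of 61 nuclear genes of the respiratory chain 21 fell and 0 rose (median -0.13), with 3 higher at an unadjusted p under 0.05 and 0 by voom; 11 fell without the block and 9 without number 8. Of 13 genes of the mitochondrial genome limma called 0 in either direction, with 0 at an unadjusted p under 0.05 and 0 by voom. The metal-binding metallothioneins MT1E and MT2A read 11.5, 11.2 and 11.2 against 9.62, 9.76 and 9.68 and 14.6, 14.6 and 14.8 against 13.6, 13.7 and 13.7, and 4 of 7 genes of their list fell. Polyamine synthesis starts with ODC1, and this gene rose by 1.3 ± 0.13. Of the 12 polyamine genes tested 3 rose and 4 fell (median -0.05), against 18.7% higher and 19.7% lower over all genes. The falls numbered 2 without the block and 2 with number 6, 8 or 11 left out.

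DNA replication genes were lower at 10 µM in every label number, by the median, and most in number 6. Of 48 G1/S genes 41 fell and 1 rose, with medians of -1.2, -0.4 and -0.4 in numbers 6, 8 and 11. CDT1, which licenses origins, read 8.5, 8.3 and 8.33 against 6.94, 7.46 and 7.17, MCM5, a helicase subunit, 11.2, 11.1 and 11 against 9.97, 10.5 and 10.3, and PCNA, the sliding clamp, 12.2, 12.2 and 12.3 against 11.6, 11.7 and 11.7. Vehicle library 6 was the highest of the vehicle libraries for CDT1 and MCM5, and the groups did not overlap for any of the 3. CDK2 rose, by 0.77 ± 0.08. Leaving out number 6 gave 32 falls and 1 rise.

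Mitotic genes had no common direction across the label numbers. The median of 34 G2/M genes was -1.93, 0.31 and 0.41 in the order 6, 8, 11, and that of 34 replication-dependent histone genes -1.68, 0.3 and 0.3. Over all 3 numbers 1 G2/M gene rose and 3 fell (voom: 1 and 7), and 0 histone genes rose and 3 fell, with 0 higher at an unadjusted p under 0.05 and 0 by voom. With number 6 left out, 20 G2/M and 13 histone genes rose and 0 of either list fell. MAD2L1, of the spindle checkpoint, read 11.2, 9.51 and 9.32 against 9.28, 9.33 and 9.13. Vehicle library 6 stood above the other 5 libraries, and the call for MAD2L1 (adjusted p = 0.0316) did not pass with number 6, 8 or 11 left out (0.0531, 0.0971 and 0.0942). CDC25B, a phosphatase that starts mitosis, differed by -0.2, 0.84 and 0.74, and its call (adjusted p = 0.04) did not pass without number 8 (0.443) or 11 (0.353).

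**Figure D5:**
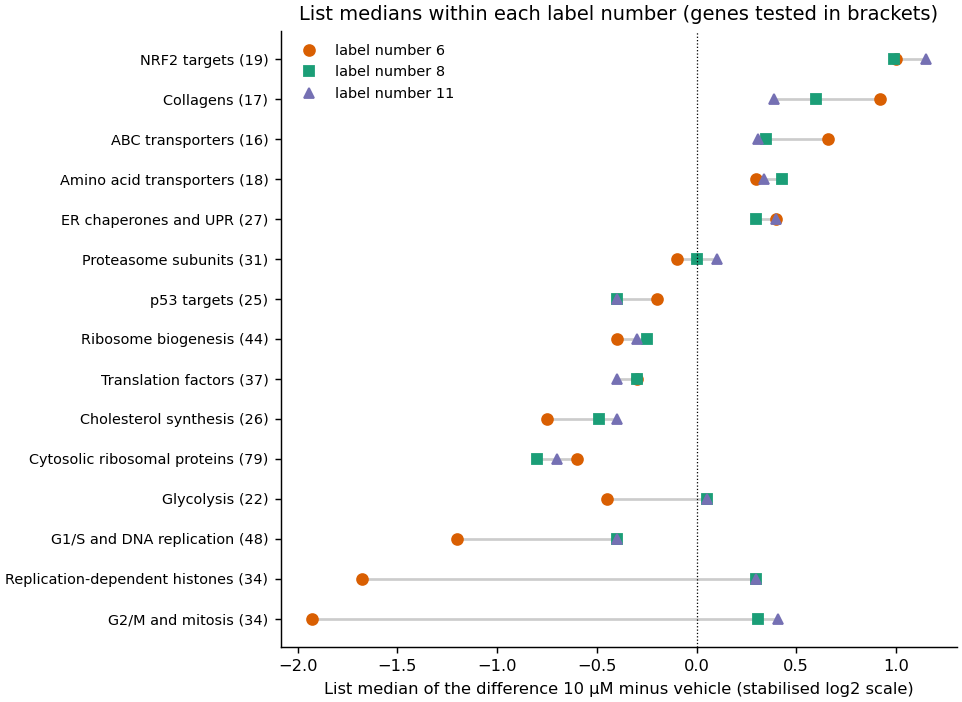
Median of the difference between 10 µM and vehicle (x axis, stabilised log2 scale) over the tested genes of 15 lists (y axis), shown for each label number. G2/M and histone genes have number 6 below 0 and numbers 8 and 11 above it.

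Among inhibitors of the cell cycle, CDKN1C, the inhibitor p57, had 452, 229 and 229 counts in vehicle and 2463, 1203 and 1294 at 10 µM and rose by 2.24 ± 0.09 (limma adjusted p = 6.97e-09). CDKN1A, the inhibitor p21, read 13.8, 14.6 and 14.7 against 14.1, 14.1 and 14.3 and did not pass (adjusted p = 0.229). CCND1 and CCND2, D-type cyclins, fell (differences of -0.27 ± 0.06 and -0.99 ± 0.12); the call for CCND1 was lost after quantile normalisation (adjusted p = 0.0849), without number 11 (0.0759) and without the block (0.291). Of 16 genes of the BCL2 family 4 rose and 7 fell. The survival genes BCL2 and BCL2L1 read 8.41, 8.89 and 8.78 against 7.5, 7.67 and 7.8 and 12.6, 13.3 and 13.4 against 11.4, 12.2 and 12.2, and the death-promoting BMF and BCL2L11 rose by 1.12 ± 0.12 and 0.81 ± 0.11. For BMF the groups overlapped, and its call did not pass without the block (adjusted p = 0.308). Other death-promoting members went both ways: BBC3, BIK, HRK and BAX fell (differences of -0.76, -0.69, -0.65 and -0.27), and BAK1 rose by 0.23. The survival gene MCL1 also fell (-0.3), while BCL2L2, another one, rose by 0.23. Of 25 p53 targets 13 fell and 2 rose, and TIGAR, a regulator of sugar use, was the larger rise (1.0 ± 0.07). Without the block 3 BCL2 family genes and 7 p53 targets fell, and 4 and 7 p53 targets fell with number 8 or 11 left out. The rises numbered 2 and 1 in these lists without the block, and the same without number 11.

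Of the called genes, those that differed most between label numbers were led by PAEP, the secreted lipocalin glycodelin, which read 12.8, 10.1 and 10.2 in vehicle and 9.06, 9.1 and 9.31 at 10 µM, with most of its fall in number 6 (adjusted p = 0.00743, and 0.0724 without number 8). TNFSF15 and ST8SIA4, a polysialyltransferase, moved in numbers 8 and 11 and hardly in 6 (-0.2, -3.18 and -3.26, and 0.1, 2.37 and 2.52). The call for ST8SIA4 did not pass without number 8 (adjusted p = 0.159), without number 11 (0.146) or without the block (0.146). Across all genes tested, 37 went one way by more than 0.5 in number 6 and the other way by as much in both other numbers, 29 of them downwards in number 6, and 0 were called.

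Between 5 and 10 µM few genes differed beyond the spread between libraries. Limma called 0 genes higher (0%) and 1 lower (0.00563%) at 10 µM, 1652 genes had an unadjusted p under 0.05, and voom called 13 higher and 3 lower. The gene called by limma was ALOX5AP, lower by 0.6 ± 0.06 (adjusted p = 0.00611); it was not called without the block or with any one label number left out.

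Between 1 and 10 µM, 1681 genes were higher (9.46%) and 2032 lower (11.4%) at the higher dose. The largest rises included IGFBP3 (2.73 ± 0.11), FGFBP1 (2.43 ± 0.12) and ABCC3 (2.2 ± 0.12). The largest falls included PAEP (-2.54 ± 0.47), SIGLEC15, a lectin of the immunoglobulin family (-1.79 ± 0.12), and ALOX5AP (-1.67 ± 0.06). SIGLEC15 and ALOX5AP had differences from vehicle of -0.07 and 0.43 at 1 µM, -1.4 and -0.64 at 5 µM and -1.86 and -1.24 at 10 µM, 3 differences that share the vehicle libraries. RDH10 was already 2.23 at 1 µM and 3.2 at 5 µM above vehicle, against 3.23 at 10 µM. HMGCS1 differed from vehicle by -1.0, -1.2 and -1.2 in order of dose, and SLC6A6 by 0.03, 0.4 and 0.9. Of the ribosomal protein genes 69 of 79 were lower at 10 than at 1 µM, and of the cholesterol genes 5 of 26 were lower and 2 higher. The counts depended on the libraries: leaving out number 8 gave 137 rises and 101 falls, leaving out number 11 324 and 395, and leaving out number 6 1107 and 1483. With no block the counts were 386 and 451.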

How the data were processed

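HEYA8 cells were given vehicle or 1, 5 or 10 µM colforsin daropate for 48 h, and total RNA was sequenced after ribosomal depletion, per the labels' protocols. The deposited values are on a log2 scale: the authors' table is named as variance-stabilised and normalised, and the submitters' processing notes name DESeq2, GRCh38 and hg38. Not given in the sources used here are the aligner, counter, strand setting and annotation release. Values are printed in steps of 0.01 below a value of 10 and of 0.1 above it, and the lowest value is 4.86. The table holds 4 rows that name no gene (no feature, ambiguous, not aligned and not unique), which stayed out of the tests (gene rows held 33.85% to 36.69% of reads).

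Values were fitted in limma 3.58.1 (R 4.3.3) with dose groups and the label number as a block over all 12 libraries, an intensity trend and Benjamini-Hochberg adjustment over the 17767 genes more than 1 above the lowest value in at least 3 libraries. Tables and plots used Python 3.11.15 with numpy 2.4.6, pandas 2.3.3, scipy 1.17.1 and matplotlib 3.10.9. The block was used because the comparison was defined as paired by label number. After removal of the dose means, correlations within a number were 0.316 to 0.777 over 18 pairs, and 0.316 to 0.449 between vehicle and 10 µM. Between different numbers they were -0.711 to 0.569, and removal of the means itself pushes these down. Numbers 8 and 11 were hardly set apart: vehicle library 8 had 0.316 with 10 µM library 8 and 0.277 with 10 µM library 11. For vehicle library 11 the values were 0.202 with 10 µM library 8 and 0.403 with 10 µM library 11. Read counts were recovered from the steps between low values, and 96.3% of 51602 low values came out whole within 0.005 of the deposited value, against 25.0% with each library given another library's depth. A count fold is the ratio of the mean normalised counts of the groups. Alternatives were fits with no block, the 6 compared libraries alone, other filters, quantile and median scaling, array weights, robust variance, voom on the recovered reads and each library or label number left out; list counts under them were added after seeing the data. The fit with the block was also run on simulated data, where a gene's noise was independent and of the same size in every library. No library was set apart there as vehicle library 6 was here, so that run cannot vouch for the fit on these data.

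Genes were named by rule: the 10 largest rises and falls, the 8 smallest p in each direction among differences of at least 1, up to 3 called members per list and direction, members chosen for their role, the 6 largest differences from 1 and 5 µM, and the 6 with the widest range between label numbers. The members and lists were chosen with earlier results of these data known. NQO1, PGD, FTL, FTH1, TALDO1, FN1, SCD and HSPA5 were chosen after their values were seen. The promoter stretches were limited to motifs before the start and outside exons after the matches were seen. Some genes that the rule picks are not reported here.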

Additional observations from a re-analysis of the deposited data

Results flagged for a closer look

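The median difference between 10 µM and vehicle over the 34 G2/M genes was -1.93 for number 6, against 0.31 and 0.41 for numbers 8 and 11. Over the 34 replication-dependent histone genes it was -1.68, 0.3 and 0.3. Both lists stood out because number 6 went one way and the other numbers the opposite way, and this difference between the numbers was not tested. The vehicle library of number 6 was also the shallowest of the 12, with 24.06 megareads on genes, and had the lowest weight when limma estimated library weights, 0.26.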

How the results depend on the processing

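The reported fit counted 3326 rises and 3498 falls from vehicle to 10 µM. With no replicate block the counts were 1982 and 2033, with the 6 compared libraries alone 1713 and 1676 with the block and 1276 and 1277 with no block, and with 1 library or label number left out 1832 to 3082 and 1796 to 3301. The other settings stayed within 1.5 times. For 10 against 5 µM, voom gave 13 and 3, the fit with no block gave 0 lower, and leaving out a label number gave 0 to 0 lower. For 10 against 1 µM the fit with no replicate block gave 386 and 451, and leaving out a label number gave 137 to 1107 and 101 to 1483. For 10 µM against vehicle, leaving out number 6 gave 3049 rises and 3236 falls, against 1832 and 1796 without number 8 and 1862 and 2045 without number 11. Each of these 3 fits left out as many libraries as the others. The cause of the changes in counts was not tested. Of 159 named genes that were called, 126 kept direction and call in each of the 20 settings in which they were tested. The stricter filter on low values tested 154 of the 159. Over all settings 101 of 3175 values lost the call and 0 reversed. The block fit and the fit with no replicate block differed in the call for 15 of the 159. The uncalled genes FTL, PER1 and MKI67 changed sign: FTL was -0.06 with array weights and -0.15 to 0.40 with a library or number left out, PER1 -0.19 to 0.02 and MKI67 -1.10 to 0.05. Values from 10 upwards are rounded to 0.1, which limits small differences of abundant genes, and genes near 4.86 rest on few reads.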

Other observations

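Signals that steer axons and cells moved in both directions, with 10 of 24 guidance cues and receptors higher and 5 lower (median 0.2). SEMA3C, a secreted semaphorin, read 12.5, 12.1 and 12.3 in vehicle and 13.8, 13.3 and 13.4 at 10 µM, and SLIT2, a ligand of ROBO receptors, 7.02, 6.46 and 6.44 against 8.1, 7.4 and 7.36 (limma adjusted p = 0.00013, and 0.0548 without the block). They rose by 1.2 ± 0.08 and 0.98 ± 0.13, and SEMA7A, a membrane-anchored semaphorin, fell by 0.67 ± 0.08 (limma adjusted p = 4.79e-05, and 0.156 without the block). Without the block 3 of the list rose and 2 fell. Of 22 receptor tyrosine kinases and ephrins 9 rose and 6 fell (median -0.05), against 18.7% higher and 19.7% lower over all genes. ROR1, a receptor for WNT5A, read 7.71, 7.29 and 7.36 against 9.05, 8.29 and 8.44 and rose by 1.14 ± 0.1. EPHB2, an ephrin receptor, and EFNA5, an ephrin, rose by 0.87 ± 0.08 and 0.92 ± 0.1. AXL and TYRO3, receptors for GAS6, fell (differences of -0.7 ± 0.06 and -0.86 ± 0.1). Without the block 5 of this list rose and 2 fell, and 2 and 2 fell with number 8 or 11 left out.

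Of 16 circadian clock genes 5 rose and 1 fell (median 0.05), against 18.7% higher and 19.7% lower over all genes. The clock repressors BHLHE41 and BHLHE40 went opposite ways: BHLHE41 read 9.58, 8.81 and 8.86 in vehicle and 10.5, 9.83 and 9.81 at 10 µM, and BHLHE40 12.9, 12.9 and 12.9 against 12, 12.3 and 12.4. The differences were 0.96 ± 0.07 and -0.67 ± 0.09. With number 8 or 11 left out, 2 and 1 clock genes rose. Of 19 YAP/TEAD targets 8 rose and 4 fell (median 0.03), among them AMOTL2, which rose by 0.5 ± 0.06; 2 fell without the block and 5 rose with number 8 left out.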
